A study of Mus musculus with 7 samples.

Results

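The Inv2 and Inv3 chromosomes were compared to see which genes meet the enhancer region more or less often when a stretch of chromosome 1 holding Ihh is inverted as well. Both libraries are Capture Hi-C, which counts ligated read pairs between restriction fragments of a chosen region, here 10 Mb around Epha4. They were chosen by title from 7 libraries, and each has 1 library, so values, differences and counts are given without a test between conditions. Each table lists 103 genes, and 6 of them were placed between the left breakpoints of the pair by gene order, not by position. Contact of a gene was the value the authors deposited for its transcription start site and the enhancer region, in scaled units.

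The groups were limb buds of stage E11.5 mouse embryos, 10 embryos to a library, with titles that also read Distal. WT carried no engineered inversion. Inv2 and Inv3 carried inversions made with CRISPR/Cas9 that share their right breakpoint at 75.9 Mb, and Inv1 and Inv4, used here for single values, are a shorter and a longer inversion of the same series. The labels give the genotype of these libraries as mutant alone. Whether 1 clone or several were used, and whether the embryos also carried a WT chromosome, is not given in the sources used here. In these libraries the cell type field reads G4 ESC, an embryonic stem cell line, while their source field reads limb bud. Contact maps hold no expression, so this tissue could not be checked against markers.

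Coordinates are in build mm9 throughout the contact data. The Ihh stretch spans 74.93 to 75.13 Mb of chromosome 1, which is 200 kb. Cryba2, Mir375, Ccdc108, Ihh, Nhej1 and Slc23a3 were placed in it. This was by gene order between the sharpest falls in the Inv3 and Inv2 tables, since the tables give no positions. In the later build GRCm38.p6, the 250 bases before the Cryba2 start site begin at 74893144, and those before the Slc23a3 start site end at 75134140. These positions lie farther apart than 200 kb, so whether all of the listed genes lie within the stretch is unknown. To the left of the Ihh stretch lies the stretch from 74.79 to 74.93 Mb with Wnt6, Wnt10a, Cdk5r2 and Fev. To its right follow 160 kb from Cnppd1 to Resp18, 330 kb from Dnpep to Slc4a3, and the moved part, 75.62 to 75.9 Mb. The moved part is the end of the Epha4 domain that both inversions carry away from the rest of it, which spans 75.9 to 77.51 Mb. In Inv2 the Ihh stretch keeps its place and the moved part is brought next to it. In Inv3 the Ihh stretch is inverted too: the moved part then lies next to Fev, and the Ihh stretch lies next to the rest of the Epha4 domain.

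**Figure D1:**
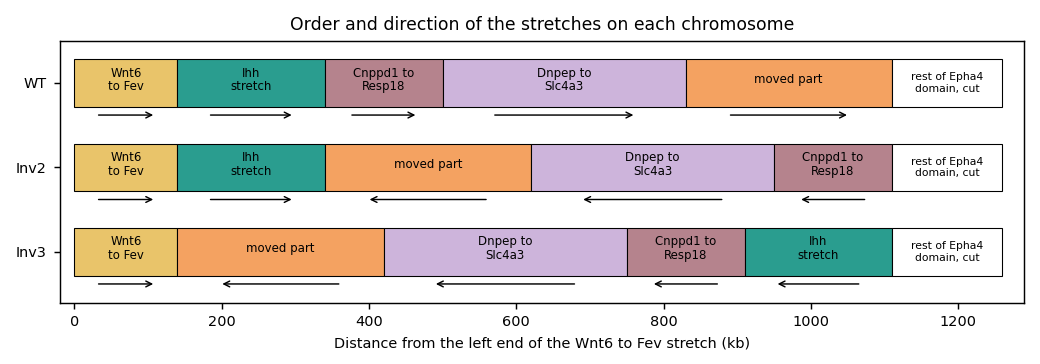
Order and direction of 5 stretches and of part of the rest of the Epha4 domain on the WT, Inv2 and Inv3 chromosomes, drawn to scale in kb from the left end of the Wnt6 to Fev stretch, with arrows for the direction relative to WT. The Ihh stretch, 200 kb long, keeps its WT place and direction in Inv2 and is turned and moved beside the rest of the Epha4 domain in Inv3.

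An enhancer acts on a start site that it meets in the nucleus, and domain borders, often bound by CTCF, limit which start sites those are. Epha4 encodes an ephrin receptor, and its limb bud enhancers lie in the large domain beside the gene-dense stretches described here. Rearrangements that join these enhancers to Wnt6, Ihh or Pax3 are known from mice and people with malformed digits. Ihh encodes the hedgehog ligand of growing cartilage, and Wnt6 and Wnt10a encode secreted Wnt ligands.

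All 6 genes of the Ihh stretch were over 2-fold lower in Inv3 than in Inv2, and all 4 genes from Wnt6 to Fev were over 2-fold higher. The 6 genes had a median of 8.94 scaled units in Inv2 and 1.55 in Inv3, against 0.650 in WT. The 4 genes had a median of 5.47 in Inv2 and 18.3 in Inv3, against 0.549 in WT. Both lists were bounded at the largest falls of these same tables, Slc23a3 to Cnppd1 in Inv2 and Fev to Cryba2 in Inv3, so their directions were largely set by how the genes were placed and are given as a description. Across all 103 genes, 41 were over 2-fold higher in Inv3 (39.8%) and 14 were over 2-fold lower (13.6%), on log2(value + 0.5) with negative values set to 0. Together these are 55 genes, or 53.4%, so a call in either direction was common among all genes.

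The tables are named as scaled, and how, and whether each on its own, is not stated. The median log2 ratio of Inv3 to Inv2 was 0.55 over all genes, and 0.32 over the 35 far genes, which are those listed before Tns1 and after Mogat1. The far genes' differences had an SD of 0.550 scaled units, and 2 SD came to 1.1 units. Far genes lie near 0, with medians of 0.0158 in Inv2 and 0.256 in Inv3. Their SD is thus a spread of low values and need not hold for genes with higher ones. With the ratios centred on the median gene, 26 genes were over 2-fold higher and 17 lower. The calls then split 60.5% higher, against 74.5% as deposited, and 3 of the 4 Wnt6 to Fev genes stayed over 2-fold, all but Cdk5r2. The tables hold no read counts, so the depth behind a gene's value is unknown. Ratios of genes with a value near or under 0 depend on the pseudocount, and the difference in scaled units is the firmer value for them.

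**Figure D2:**
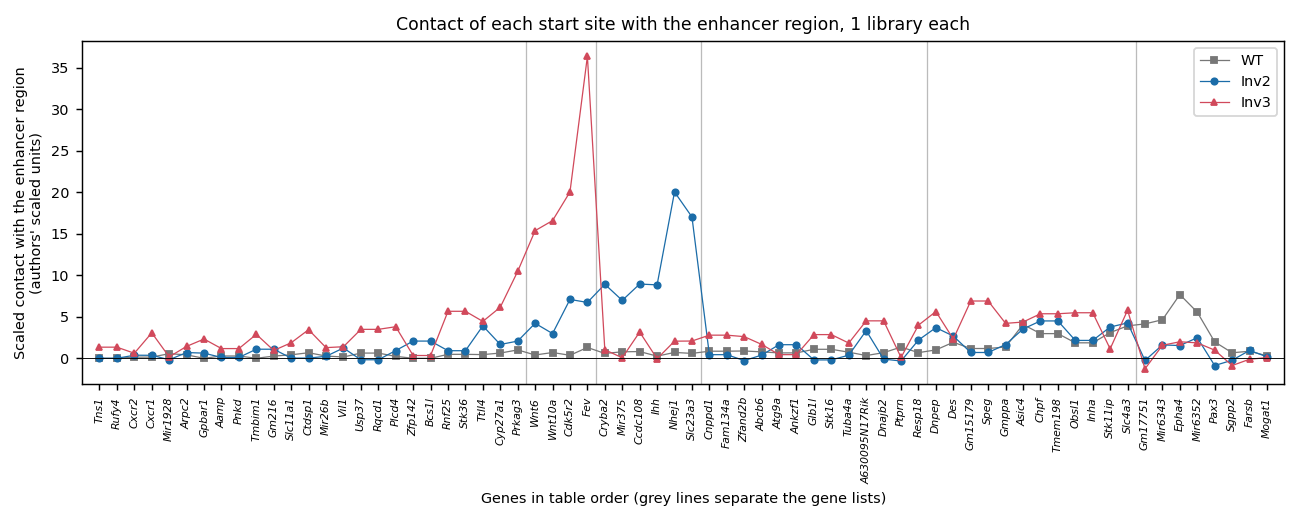
Scaled contact with the enhancer region (vertical axis, the authors' scaled units) of the genes from Tns1 to Mogat1 in table order, in WT, Inv2 and Inv3, 1 library each; the far genes at both table ends are not drawn. Inv2 is highest at Nhej1 (20.04) and falls to 0.438 at Cnppd1, while Inv3 is highest at Fev (36.4) and falls to 1.03 at Cryba2.

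Ihh, the hedgehog ligand, had the lowest log2 ratio of Inv3 to Inv2 with a pseudocount of 0.5, though not with one of 5, where Nhej1 was lower at -1.83 and Slc23a3 at -1.64. Its contact was 8.85 in Inv2 and -0.0525 in Inv3, a difference of -8.90 units, with WT at 0.260, Inv1 at 6.31 and Inv4 at 1.03. The Inv2 to Inv4 tables hold negative values and those of WT and Inv1 do not; a subtraction of WT was found in the maps, and what was subtracted in the tables is not stated. The log2 ratio of Inv3 to Inv2 was -4.22, or -4.77 with ratios centred on the median gene and -1.47 with a pseudocount of 5. Of the inversions, Inv1 and Inv2, which leave Ihh in place, were thus the high libraries, and Inv3 and Inv4, which invert it, the low ones. WT, which leaves Ihh in place too, was low as well.

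Nhej1, a factor of DNA end joining, had the highest contact of the Inv2 table. It stood at 20.04 in Inv2 and 2.07 in Inv3, while WT was at 0.709, Inv1 at 16.8 and Inv4 at 5.90. Its log2 ratio of Inv3 to Inv2 was -3.0, and its Inv3 value was still above WT with a log2 ratio of 1.09. Slc23a3, a member of the nucleobase and ascorbate transporter family, stood at 17.03 in Inv2 and 2.08 in Inv3, while WT was at 0.591, Inv1 at 9.78 and Inv4 at 2.10. Its log2 ratio was -2.76. In table order it is the last gene of the stretch.

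The other members of the stretch lie toward Fev. Cryba2, which encodes a lens crystallin, had 8.92 in Inv2 and 1.03 in Inv3, against 0.587 for WT, 6.62 for Inv1 and 2.76 for Inv4, and a log2 ratio of Inv3 to Inv2 of -2.62. Mir375, a microRNA known from pancreatic islets, had 6.98 in Inv2 and 0.0681 in Inv3, against 0.784 for WT, 5.62 for Inv1 and 2.77 for Inv4, and a log2 ratio of -3.72. Both were thus high in Inv1 and Inv2 and lower in Inv3, Inv4 and WT, although WT leaves the stretch in place too. Ccdc108, a coiled-coil gene, kept the highest Inv3 value of the 6 genes, 3.16, against 8.95 in Inv2, with WT at 0.814, Inv1 at 6.21 and Inv4 at 3.53. Its log2 ratio was -1.37, the smallest in size of the stretch. With a pseudocount of 5 it was the 1 gene of the 6 within 2-fold, at -0.77.

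The microRNA of the stretch is shown because its hairpin is short enough to be given whole. The entries used here hold no mature sequence for the arm opposite 5p, so that arm is not marked, and the 5p arm is not the whole product. Of Mir375, RefSeq (GRCm38.p6, a later build than that of the contact data, with no coordinate converted) gives the hairpin below, with the 5p arm in capitals, and the mature 5p arm with its seed, bases 2 to 8, in capitals.
Mir375 hairpin, chr1:74900658-74900721, minus strand: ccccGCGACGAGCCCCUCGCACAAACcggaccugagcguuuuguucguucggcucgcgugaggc
mmu-miR-375-5p, chr1:74900696-74900717, minus strand: gCGACGAGccccucgcacaaac

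Wnt6 to Fev is the stretch that the moved part joins in Inv3. Wnt6, a Wnt ligand, had 4.22 in Inv2 and 15.4 in Inv3, against 0.401 for WT, 4.41 for Inv1 and 0.545 for Inv4, and a log2 ratio of Inv3 to Inv2 of 1.75. Wnt10a, the Wnt ligand next to it, had 2.98 in Inv2 and 16.6 in Inv3, against 0.697 for WT, 2.19 for Inv1 and 0.766 for Inv4, and a log2 ratio of 2.30. Both Wnt genes were highest in Inv3 and low where Inv4 inverts them. Cdk5r2, an activator of the neuronal kinase Cdk5, had 7.09 in Inv2 and 20.05 in Inv3, against 0.365 for WT, 5.44 for Inv1 and 1.81 for Inv4. Its log2 ratio was 1.44, or 0.89 once centred on the median gene. Fev, which encodes an ETS factor of neurons that make serotonin, had the highest value of the Inv3 table, 36.4, against 6.73 in Inv2, with WT at 1.31, Inv1 at 4.28 and Inv4 at -0.0665. Its log2 ratio of Inv3 to Inv2 was 2.35.

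The order of the levels differed between the tables. In Inv3 contact was highest at the gene nearest to the moved part, Fev, and was lower at Cdk5r2, Wnt10a and Wnt6 in turn. In Inv2 the levels did not follow the order of the genes. Slc23a3, the last of the stretch in table order, was below Nhej1. Ihh, Ccdc108, Mir375 and Cryba2 further left lay between 6.98 and 8.95. The 4 genes from Wnt6 to Fev, further left again, lay between 2.98 and 7.09 in Inv2.

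**Figure D3:**
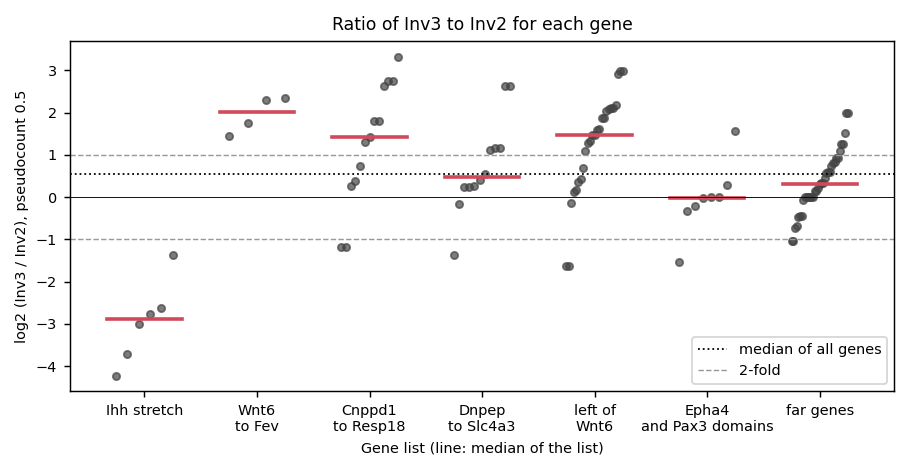
Log2 ratio of Inv3 to Inv2 for each of the 103 genes (points), with a pseudocount of 0.5, by gene list; red lines are list medians, the dotted line is the median of all genes (0.55) and dashed lines mark 2-fold. All points of the Ihh stretch lie below the lower dashed line (median -2.88) and all points of Wnt6 to Fev above the upper one (median 2.02).

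The 250 bases before the start sites of Ihh and Wnt6, the ligand genes of the 2 stretches with a window, and of Nhej1 and Fev, the highest genes of the Inv2 and Inv3 tables, are shown. RefSeq start sites (GRCm38.p6) were found for 4 of the 6 Ihh stretch genes and 3 of the 4 genes from Wnt6 to Fev. The letters CCCTC and their reverse complement GAGGG, from which the border protein CTCF takes its name, are in capitals and were searched on both strands. No match of them can overlap a match of the other motif searched, TATAAA. They occur in 5 of these 7 windows, against 60.5% of 32851 windows of the same length over all RefSeq start sites, and TATAAA (reverse complement TTTATA) occurs in 0 of the 7, against 12.4%. A match is a description of the letters and no binding site. Each sequence reads 5′ to 3′ on the strand of its gene.
Ihh, chr1:74951673-74951922, minus strand: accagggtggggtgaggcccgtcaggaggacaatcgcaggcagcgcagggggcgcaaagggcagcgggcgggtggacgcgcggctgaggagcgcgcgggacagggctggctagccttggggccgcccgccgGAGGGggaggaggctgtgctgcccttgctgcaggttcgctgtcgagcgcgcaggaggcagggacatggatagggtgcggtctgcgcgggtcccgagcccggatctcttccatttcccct
Nhej1, chr1:75125227-75125476, minus strand: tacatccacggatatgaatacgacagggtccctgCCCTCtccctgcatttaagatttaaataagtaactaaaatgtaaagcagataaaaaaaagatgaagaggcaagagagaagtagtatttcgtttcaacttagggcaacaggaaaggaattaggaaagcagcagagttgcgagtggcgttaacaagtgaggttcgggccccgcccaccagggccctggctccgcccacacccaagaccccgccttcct
Wnt6, chr1:74771642-74771891, plus strand: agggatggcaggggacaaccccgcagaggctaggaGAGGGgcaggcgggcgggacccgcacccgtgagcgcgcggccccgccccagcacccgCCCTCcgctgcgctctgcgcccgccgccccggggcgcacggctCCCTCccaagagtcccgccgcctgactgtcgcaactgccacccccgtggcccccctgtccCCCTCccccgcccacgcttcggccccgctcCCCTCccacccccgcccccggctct
Fev, chr1:74885409-74885658, minus strand: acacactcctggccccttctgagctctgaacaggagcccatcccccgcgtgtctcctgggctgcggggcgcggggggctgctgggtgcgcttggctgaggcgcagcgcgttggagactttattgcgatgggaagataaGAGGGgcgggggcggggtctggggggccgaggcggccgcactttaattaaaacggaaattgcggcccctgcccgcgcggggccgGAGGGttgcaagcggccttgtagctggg
Wnt6 holds 5 matches and 28 CG pairs, Ihh 1 match and 24 CG pairs, Fev 2 matches and 22 CG pairs, and Nhej1 1 match and 9 CG pairs. The median over all windows is 6 CG pairs, so Wnt6, Ihh and Fev start in CG-rich sequence, above 92.4%, 88.0% and 85.2% of the windows. The letters were found in 3 of the 4 windows of the Ihh stretch and in 2 of the 3 from Wnt6 to Fev.

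Genes from Cnppd1 to Resp18, which both inversions turn, were mostly higher in the Inv3 table. Of 13, 8 were over 2-fold higher in Inv3 and 2 were lower, against 39.8% and 13.6% of all genes, with medians of 0.386 in Inv2, 2.79 in Inv3 and 0.776 in WT. The list's median log2 ratio was 1.41, or 0.87 with ratios centred on the median gene. With a pseudocount of 5 none of the 13 was over 2-fold either way, and of the 8 without a negative value 4 were higher and 2 lower. Dnajb2, a co-chaperone gene, had 0.679 in WT, -0.0933 in Inv2 and 4.51 in Inv3. Its log2 ratio of 3.33 was the highest of the tables with a pseudocount of 0.5, but 0.93 with one of 5, below the 1.82 of Fev. Glb1l, a relative of beta-galactosidase, and the kinase gene Stk16 share 1 value in each table, 1.09 in WT, -0.194 in Inv2 and 2.86 in Inv3. Zfand2b, a zinc finger gene of protein turnover, stood at 0.884, -0.273 and 2.61 in the same order. Against these, Atg9a, an autophagy gene, and Ankzf1 shared values of 1.64 in Inv2 and 0.441 in Inv3. Ptprn, a phosphatase-like protein of secretory granules, stayed low in both, at -0.326 and 0.102, below its 1.35 in WT. The differences of this list ran up to 4.61 scaled units, against 2 SD of 1.1 for the far genes, and all 10 called genes exceeded that yardstick. It comes from genes near 0, and the differences of this list had a wider SD of 1.67. The called genes include pairs that share 1 value, as the 2 lower ones do.

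Genes from Dnpep to Slc4a3 lie in the middle of both inverted segments. Their median was 1.90 in WT, 3.10 in Inv2 and 5.43 in Inv3, and 5 of 12 were over 2-fold higher and 1 lower, which is near the 39.8% and 13.6% of all genes. The median log2 ratio of 0.48 turned to -0.073 with ratios centred on the median gene, and 2 higher and 1 lower gene were then called. Gm15179 and Speg, a kinase gene of striated muscle, share 1 value in each table and had the highest ratio of this list, with 1.18 in WT, 0.701 in Inv2 and 6.91 in Inv3 (log2 ratio 2.62). Stk11ip, a partner of the kinase Stk11, stood at 3.77 in Inv2 and 1.14 in Inv3, with a log2 ratio of -1.38.

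Left of Wnt6, outside both inversions, 17 of 25 genes were over 2-fold higher in Inv3 and 2 lower. Over all genes these shares were 39.8% and 13.6%, and the counts include pairs of genes that share 1 value in each table. The higher genes numbered 12 with ratios centred on the median gene, 14 when a difference over 2 SD of the far genes was asked for as well, and 1 with a pseudocount of 5, where none was lower. The median was 0.279 in WT, 0.622 in Inv2 and 1.87 in Inv3, and the median log2 ratio was 1.47, or 0.92 with ratios centred on the median gene. Prkag3, next to Wnt6 in the table and coding for part of the AMP-activated kinase, stood at 1.01 in WT, 2.07 in Inv2 and 10.5 in Inv3. Usp37, a deubiquitinase gene, and Rqcd1, a subunit gene of the CCR4-NOT complex, share values of 0.630 in WT, -0.176 in Inv2 and 3.49 in Inv3 (log2 ratio 3.0). Ctdsp1, a phosphatase gene, stood at 0.671, 0.0243 and 3.45, with a log2 ratio of 2.91. The 2 lower genes, Zfp142 (a zinc finger gene) and Bcs1l (an assembly factor of respiratory complex III), share values of 2.08 in Inv2 and 0.339 in Inv3 and are listed at 0 in WT.

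Genes of the Epha4 and Pax3 domains, listed after Slc4a3 from Gm17751 to Mogat1, were mostly within 2-fold of each other in the pair. Gm17751 and Sgpp2 were negative in both libraries, so setting negative values to 0 fixed their log2 ratio at 0. With negative values left out, 4 of the 8 genes could be used, and 0 were called in either direction. Without positions, whether all of them lie to the right of the inversions is unknown. Epha4, the receptor gene that these enhancers serve in WT, stood at 7.68 in WT, 1.54 in Inv2 and 1.995 in Inv3, and its log2 ratio of 0.29 turned to -0.26 with ratios centred on the median gene. Pax3, which encodes a factor of muscle progenitors and neural crest, was the 1 higher gene of the 8, with 1.98 in WT, -0.870 in Inv2 and 0.984 in Inv3 (log2 ratio 1.57). Farsb, which encodes a subunit of a tRNA synthetase, was the 1 lower gene, at 0.950 in Inv2 and -0.112 in Inv3 (log2 ratio -1.54), a difference of -1.06 units that lies inside 2 SD of the far genes. Sgpp2, a lipid phosphatase gene, was negative in both, at -0.230 and -0.871. Mogat1, an acyltransferase gene, stood at 0.184 and 0.0868, with a log2 ratio of -0.22. The remaining members, Gm17751, Mir6343 and Mir6352, stood at 4.15, 4.65 and 5.55 in WT, at -0.258, 1.61 and 2.48 in Inv2, and at -1.27, 1.57 and 1.86 in Inv3, all low in the pair next to WT. The count over the list was 1 higher and 1 lower of 8, against 6 higher and 2 lower of 35 far genes. The far genes turned to 2 higher and 5 lower, with a median of -0.23, under centring on the median gene, and none was called with a pseudocount of 5.

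Against WT the pair differed in how many genes were above it. Over 2-fold above WT were 20 of 103 genes in Inv2 (19.4%) and 47 in Inv3 (45.6%). In the Ihh stretch these were 6 of 6 in Inv2 and 3 of 6 in Inv3, where Nhej1, Slc23a3 and Ccdc108 were above WT, Mir375 was over 2-fold below and Ihh was within 2-fold at -0.60. Both comparisons share the WT library.

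The 10 kb contact maps were read in the order of the WT sequence, so that each stretch is the same DNA in every library. A share is the summed balanced signal between a stretch and a partner, with the standard error from counting read pairs. It is a percent of the median bin sum of the map times the number of bins used in the stretch. That product stands here for all contacts of the stretch. WT held 5155269 read pairs over all bins. Outside their inverted segments Inv2 held 3832289 and Inv3 3262801, against 4543130 and 4444530 in WT over the same areas. These errors cover counting alone. For Inv2 and Inv3 they are approximate throughout, since depth was taken from WT bin factors in all bins. Outside the inverted segments these factors correlated with those of Inv2 and Inv3 at 0.988 and 0.991. Of the listed bin pairs 29.7% in Inv2 and 31.3% in Inv3 are negative, because a WT map weighted by 0.423 or 0.369 had been subtracted. Of the 20 bins of the Ihh stretch, the bin at 75.1 to 75.11 Mb has no value in Inv3 and was left out of all 3 maps.

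The Ihh stretch changed partners between the chromosomes. Its share of contacts with the moved part was 0.941% ± 0.026 in WT, 16.3% ± 0.183 in Inv2 and 1.33% ± 0.070 in Inv3 (counting SE, 1 library each). The difference of Inv3 to Inv2 was -15.0 percentage points, with a 95% counting interval from -15.4 to -14.6. Its share with the rest of the Epha4 domain was 3.36% ± 0.049 in WT, 4.18% ± 0.121 in Inv2 and 27.9% ± 0.237 in Inv3, a difference of 23.7 points with an interval from 23.2 to 24.2. So the stretch left the moved part for the rest of the Epha4 domain, and of the pair the 6 genes' contact with the enhancer region was high in Inv2. High contact was not limited to a place beside the moved part. In Inv1, where Cnppd1 to Resp18 lies between the stretch and the moved part, their median was 6.47 scaled units, against 8.94 in Inv2. The tables do not state where the enhancer region lies.

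Other partners moved with the order of the stretches. The share with Wnt6 to Fev was 8.54% ± 0.077 in WT, 8.95% ± 0.180 in Inv2 and 0.855% ± 0.153 in Inv3. With the 1000 kb left of it, the share was 8.08% ± 0.083, 6.25% ± 0.184 and 1.54% ± 0.169. With Cnppd1 to Resp18, the stretch that stays beside Ihh in Inv3 but not in Inv2, it was 10.9% ± 0.104, 0.920% ± 0.189 and 9.11% ± 0.252. The adjoining stretch on the left thus had a share near that of WT in Inv2 and a lower one in Inv3, and the adjoining stretch on the right the reverse. With the WT share added back to the maps, the log2 ratio of Inv3 to Inv2 went from 3.31 to 0.78 for Cnppd1 to Resp18, and from -2.67 to -0.75 for Wnt6 to Fev and the left flank together. With Dnpep to Slc4a3 the share was 7.41%, 8.29% and 6.14%, and with the 1000 kb beyond the Epha4 domain 2.13%, 2.2% and 10.8%.

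**Figure D4:**
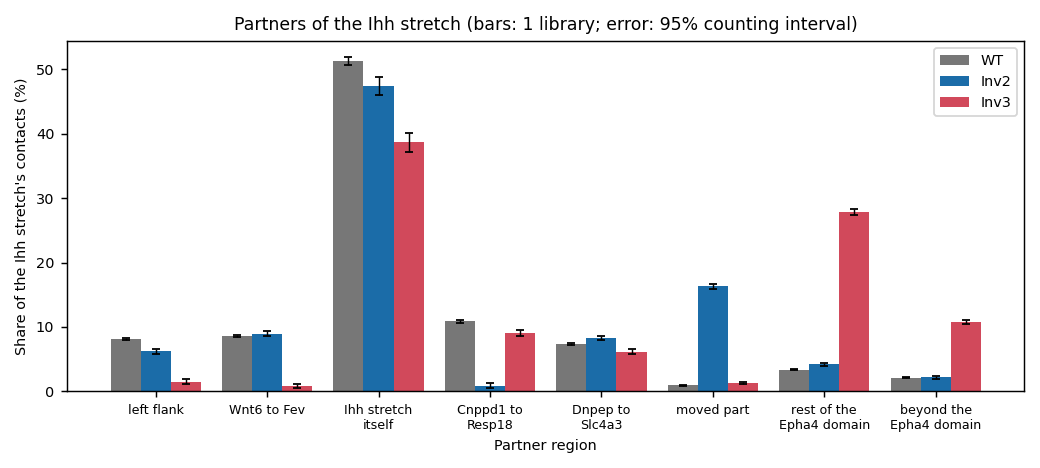
Share of the Ihh stretch's contacts (vertical axis, percent) with each of 8 regions in WT, Inv2 and Inv3; bars are 1 library each and error bars are 95% counting intervals. The bar for the moved part stands at 16.3% in Inv2 and 1.33% in Inv3, and the bar for the rest of the Epha4 domain at 4.18% and 27.9%.

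Distance changed together with these shares. The mean distance of the Ihh stretch to the moved part was 730 kb in WT, 240 kb in Inv2 and 730 kb in Inv3, and to the rest of the Epha4 domain 1675 kb, 1675 kb and 905 kb. Divided by the mean contact at the same distance in the same map (observed over expected), contact with the moved part was 0.290 in WT, 1.53 in Inv2 and 0.383 in Inv3. Contact with the rest of the Epha4 domain was 0.592, 0.738 and 1.65 on that scale. Both partners were therefore above the mean for their distance on the chromosome that brought them close, and under it otherwise. With Cnppd1 to Resp18 the values were 1.33, 0.522 and 1.07, and with Wnt6 to Fev 1.01, 1.04 and 0.599.

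The moved part was examined from its own side. With the Ihh stretch it made 0.639% ± 0.018 of its contacts in WT, 11.1% ± 0.124 in Inv2 and 0.900% ± 0.047 in Inv3. With Wnt6 to Fev it made 0.418% ± 0.013, 2.71% ± 0.053 and 9.30% ± 0.098, and observed over expected contact there was 0.321, 0.841 and 1.54. With the left flank it made 1.53%, 3.65% and 7.04%. Its contacts with Cnppd1 to Resp18 were 1.34% ± 0.043 in Inv2 and 1.37% ± 0.047 in Inv3, with an interval of the difference from -0.091 to 0.147 points. Those with Dnpep to Slc4a3 were 7.44% ± 0.105 and 7.39% ± 0.111, with an interval from -0.333 to 0.225 points. The stretches that are inverted in both chromosomes thus kept their distance to the moved part and did not differ in it beyond the counting error. The higher table values of the Cnppd1 to Resp18 genes in Inv3 had no counterpart in this share, nor in that stretch's share with the rest of the Epha4 domain, which was the higher in Inv2. With the rest of the Epha4 domain the moved part made 33.5% in WT, 7.97% ± 0.205 in Inv2 and 7.43% ± 0.215 in Inv3.

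Contact with the moved part varied along the Ihh stretch. In Inv2 its share over the 50 kb windows from left to right was 10.9%, 13.6% ± 0.271, 14.1% ± 0.304 and 29.2%, of which the middle pair did not differ beyond the counting error. Observed over expected contact in these windows was 1.41, 1.53, 1.32 and 2.0, with no steady order but the last window again the highest. The highest bin of Inv2 was the last one, 75.12 to 75.13 Mb, at 43.5% ± 1.23. In Inv3 the same windows stood at 1.36%, 1.20%, 1.15% and 1.67%, against 0.914%, 0.902%, 0.993% and 0.961% in WT. The highest bin of Inv3 lay just outside the stretch, at 74.92 to 74.93 Mb, with 44.4% ± 1.1. The bin next to it inside the stretch stood at 2.96%, so the profile broke within 10 kb.

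The rest of the Epha4 domain showed the mirror image. Its share over the same windows was 39.8%, 25.0%, 25.1% and 20.1% in Inv3 and 4.07%, 4.16%, 4.29% and 4.22% in Inv2. The highest bin of Inv3 was the first of the stretch, 74.93 to 74.94 Mb, at 53.4% ± 1.18. In Inv2 it was 75.13 to 75.14 Mb, the first bin beyond the stretch, at 51.2% ± 1.11. That bin belongs to Cnppd1 to Resp18, whose share with the rest of the Epha4 domain was 3.85% in WT, 33.3% ± 0.248 in Inv2 and 11.3% ± 0.175 in Inv3. The Ihh stretch in Inv3 thus took the place that Cnppd1 to Resp18 has in Inv2.

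**Figure D5:**
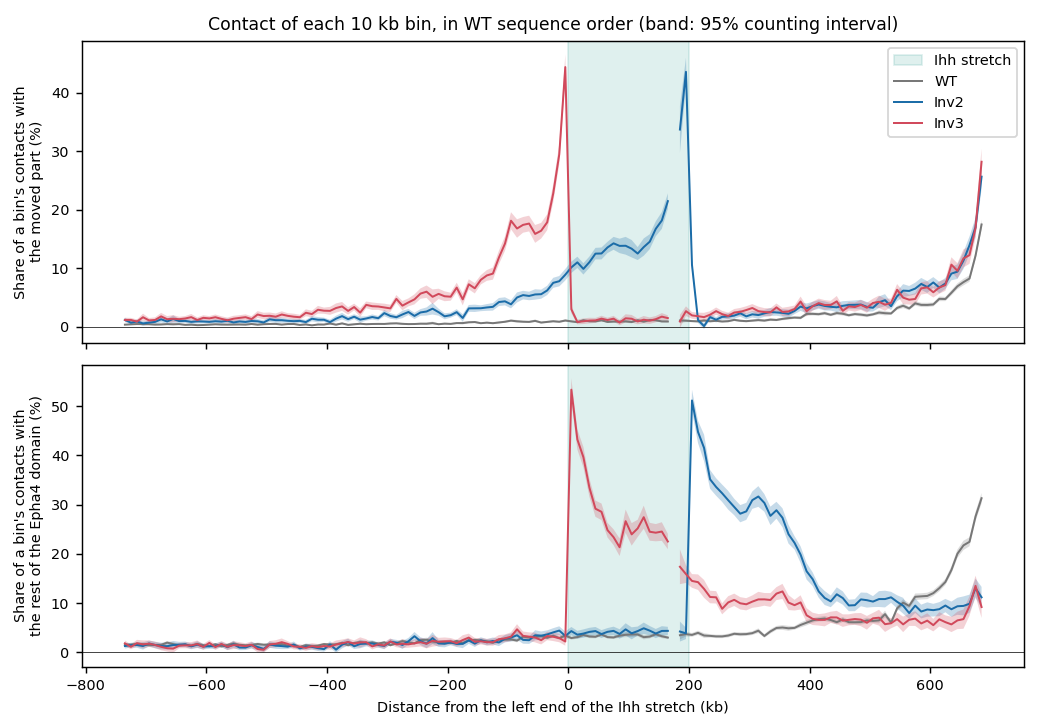
Share of each 10 kb bin's contacts (vertical axes, percent) with the moved part (top) and with the rest of the Epha4 domain (bottom), against distance in WT sequence order from the left end of the Ihh stretch (kb); lines are WT, Inv2 and Inv3, bands are 95% counting intervals, and the gap is the bin left out. Contact with the moved part peaks at the right end of the Ihh stretch in Inv2 (43.5%) and just left of it in Inv3 (44.4%), and contact with the rest of the domain peaks just right of it in Inv2 (51.2%) and at its left end in Inv3 (53.4%).

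Within the rest of the Epha4 domain, contact of the Ihh stretch in Inv3 was spread over its whole length. The 200 kb window nearest to the join held 5.82% ± 0.105 of the stretch's contacts, and the windows from 76.5 to 77.3 Mb held 2.72% to 2.89% each. The last window, 77.3 to 77.5 Mb at the far border of the domain, held 3.67% ± 0.083, above its neighbour by more than the counting error. Observed over expected contact was 0.553 in the nearest window and 3.79 in the last, against 0.353 and 1.56 in Inv2 and 0.289 and 1.19 in WT. The nearest window was thus under the mean for its distance in all 3 maps, and the last above it.

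In the moved part, the 70 kb beside the WT domain border stood out for both neighbours. In Inv2, the window from 75.62 to 75.69 Mb made 14.4% ± 0.274 of its contacts with the Ihh stretch, with observed over expected contact of 2.79. The window beside the join in Inv2, 75.83 to 75.9 Mb, made 12.2% ± 0.27, with observed over expected contact of 0.892. In Inv3 the same windows made 11.9% ± 0.217 and 10.2% ± 0.211 of their contacts with Wnt6 to Fev, with observed over expected contact of 2.86 and 0.813. The border end of the moved part, which lies farther from the neighbour than the join does, was thus the higher of the pair on both scales in both chromosomes.

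Borders were sought at both ends of the Ihh stretch. A boundary is here a local minimum of contact across a bin, in a 200 kb square, with its depth on the log2 scale. At the right end of the Ihh stretch Inv2 had a boundary of depth 0.383, which was 0.790 with a 100 kb square and was not called with a 300 kb square. At its left end, now facing the rest of the Epha4 domain, Inv3 had a boundary of depth 0.846, or 0.961 and 0.945 with the smaller and the larger square. WT had none at either end with the 200 kb square, but with the 100 kb square it had one of depth 0.831 at the right end and one of 0.497 near the left end. At the smaller square Inv2 had a depth of 0.531 near its left end, and Inv3 one of 1.04 at its right end. With the 300 kb square these were 0.494 and 0.292, and neither was called with the 200 kb square. Of the boundaries at these ends, the one at the left end in Inv3 was thus the only one of the pair's called with all 3 squares. Inv2 too had a boundary beside the rest of the Epha4 domain, at 75.14 Mb in Cnppd1 to Resp18, of depth 0.602 with the 200 kb square. The WT border of the Epha4 domain was called with all 3 squares in both, with depths of 1.18 in Inv2 and 1.31 in Inv3 at 200 kb.

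Contact inside the Ihh stretch was also lower in Inv3. The stretch made 51.2% ± 0.316 of its contacts with itself in WT, 47.4% ± 0.722 in Inv2 and 38.6% ± 0.752 in Inv3. The difference of Inv3 to Inv2 was -8.72 points, with an interval from -10.6 to -6.87. Observed over expected contact at 50 kb was 1.31 in WT, 1.28 in Inv2 and 0.911 in Inv3. At 100 kb it was 1.75, 1.69 and 1.60, and at 150 kb 1.68, 1.75 and 1.69. The stretch from Cnppd1 to Resp18 showed the opposite order, with 51.7% in WT, 35.1% ± 0.616 in Inv2 and 46.2% ± 0.687 in Inv3. In each chromosome the stretch beside the rest of the Epha4 domain was thus the one with a lower share of contacts inside itself. Balancing holds the sums of the bins near a constant, so a gain with a partner leaves less share for the others. The lower shares inside these stretches therefore cannot be told apart from their gains with the rest of the Epha4 domain.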

How the data were processed

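Contact maps of WT, Inv2 and Inv3 and gene tables of WT and Inv1 to Inv4 were used, grouped by sample title. The authors' notes name Bowtie2 2.2.6, Juicer and build mm9, per the submitters' processing notes; the sources used here give neither their roles nor the counting and scaling behind the tables. The deposited WT map and the WT and Inv1 tables hold a signal that is never negative, balanced by the Knight-Ruiz method in 10 kb bins per the file names for the map. The deposited Inv2 to Inv4 maps and tables hold a score that can be negative. Of the negative map values, 73.3% in Inv2 and 72.7% in Inv3 lie within 1% of 1 multiple of WT, so that 49.3% and 49.4% of the bin sum had been subtracted; the labels do not describe this step.

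From these files the inverted segments were located where negative values stop following WT, at 75.13 to 75.9 Mb in Inv2 and 74.93 to 75.9 Mb in Inv3, and turned back to WT order. Within the segments, factors of the bins correlated with WT at 0.526 and 0.672 when read backwards and at 0.0493 and -0.102 when read forwards. Read pairs were recovered from 1 factor per bin, with 99.9% of values under 20 read pairs within 0.1 of a whole number. Standard errors count read pairs, and intervals are 95% (1.96 SE). Bins without any value were left out of all maps. Boundaries needed a depth of 0.2 within 300 kb. Steps were tested on simulated data, with Python 3.11.15, NumPy 2.4.6 and Matplotlib 3.10.9. Of 103 symbols, 98 were current RefSeq symbols and 5 were synonyms; 30 genes share all values with another.

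Named genes were all those of the Ihh, Wnt6 to Fev and Epha4 and Pax3 lists, the 8 highest and 8 lowest ratios of Inv3 to Inv2, and both sides of the largest fall in each table; Ptprn, Prkag3, Stk11ip, Atg9a and Ankzf1 were added as examples after their values had been seen. Members and lists were chosen with earlier results of these data known. Alternatives were the pseudocount, the centring, negative values, the limits of the stretches, the WT share and distance; the call at 2 SD of the far genes was added after seeing the data. With 1 library a condition, no test between conditions was made.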

Additional observations from a re-analysis of the deposited data

Results flagged for a closer look

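Of all genes, 8 were over 2-fold on opposite sides of WT in the pair, and the difference was not tested, since each condition has 1 library and both ratios share the WT library. Mir375 was above WT in Inv2, with a log2 ratio of 2.54, and below it in Inv3, at -1.18. The other 7 genes were below WT in Inv2 and above it in Inv3. Dnajb2 stood at -1.24 in Inv2 and 2.09 in Inv3. Usp37 and Rqcd1, which share their values, stood at -1.18 and 1.82, and Ctdsp1 at -1.16 and 1.75. Glb1l and Stk16, which share theirs, stood at -1.67 and 1.08, and Zfand2b at -1.47 and 1.17. Of these 7 genes, all but Ctdsp1 have a negative Inv2 value, which was set to 0 before the ratio was taken, and their WT values lie between 0.630 and 1.09 scaled units.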

How the results depend on the processing

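The direction of the 3 list medians (Ihh stretch, Wnt6 to Fev, Cnppd1 to Resp18) and of the 6 shares below held under all settings tried; the medians of Dnpep to Slc4a3 and of the far genes, and Epha4, turned with the centring. With a pseudocount of 5 in place of 0.5, 7 genes were over 2-fold higher in Inv3 and 5 lower, the median of the Ihh stretch genes was -1.36 and that of Cnppd1 to Resp18 was 0.35. With ratios centred on the median gene, 26 genes were higher. With a pseudocount of 0.05, 52 were higher and 18 lower. By over 2 SD of the far genes as well, 35 were higher and 11 lower, with all 6 Ihh stretch genes among the lower and all 4 Wnt6 to Fev genes among the higher.

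Shares are given as log2 of Inv3 over Inv2. Between the Ihh stretch and the moved part this was -3.62 from either side, -2.94 with the WT share added back, -3.46 with negative values set to 0 and -2.00 as observed over expected. Between the moved part and Wnt6 to Fev it was 1.78, and 1.66 with limits drawn in by 20 kb, 1.63 with WT added back and 0.87 as observed over expected. Between the Ihh stretch and the rest of the Epha4 domain it was 2.74, and 2.61, 2.06, 2.47 and 1.16 under the limits, WT, negative values and observed over expected settings. With Cnppd1 to Resp18 it was 3.31, and 0.78 with WT added back, 2.48 with negative values at 0 and 1.04 as observed over expected. With Wnt6 to Fev and the left flank together it was -2.67, and -0.75, -1.79 and -0.53 in the same order. The cause of these shifts was not tested.

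No paired analysis was possible because each condition has 1 library, and for the same reason no library was left out in turn. The pair of maps and tables describes the inverted chromosomes as far as the authors' subtraction removed WT signal. Counting intervals are narrow for the larger shares but wide for the size of some small ones. The Ihh stretch's share with Cnppd1 to Resp18 in Inv2, 0.920%, had an interval from 0.550% to 1.29%. Its share with Wnt6 to Fev in Inv3, 0.855%, had one from 0.555% to 1.15%. Depth is unknown for the gene tables.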

Other observations

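Where Inv4 also inverts the Ihh stretch, with the left breakpoint at 74.79 Mb, the 6 genes lay between 1.03 and 5.90 scaled units, with a median of 2.77. That lies between the Inv3 median of 1.55 and the Inv2 median of 8.94. In Inv1, which inverts neither this stretch nor its neighbours up to Resp18, they had a median of 6.47. Among far genes, Igfbp2, a binding protein of insulin-like growth factors, had the highest ratio of Inv3 to Inv2, with 0.213 in WT, -0.197 in Inv2 and 1.5 in Inv3. It was chosen after its values were seen.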
